A study of Arabidopsis thaliana with 12 samples.

Results

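The genes described here encode small subunits and assembly factors of photosystem II of Arabidopsis thaliana. They are PSBY (AT1G67740), PSBW (AT2G30570), PSB27 (AT1G03600) and LPA19 (AT1G05385), and they were chosen by name among the array spots that the platform annotation pairs with exactly 1 gene. Each of the 4 genes had 1 such spot, out of 692 spots with a single gene and 3439 spots in all. The choice was made with earlier results of these data known. Total RNA of toc34 mutants (6 arrays) was compared with total RNA of wild type, WT (6 arrays), and both genotypes are in the ecotype Columbia 0 per the labels. The mutant is labelled as impaired in protein import across the outer envelope of the chloroplast. The labels name no mutant allele, tissue, age or growth condition, and do not say whether arrays of the same genotype hold RNA of different plants. The p-values therefore cover only the spread among these arrays, part or all of which may be technical.

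Photosystem II is the thylakoid complex that splits water and starts photosynthetic electron transport. Its core proteins are encoded in the chloroplast, whereas many small subunits and assembly factors are encoded in the nucleus, made in the cytosol and imported through the envelope translocons, of which TOC34 is a GTP-binding receptor. PSBY is a small membrane subunit, made as a precursor that is cut into a pair of short peptides, and PSBW is a small membrane subunit known to stabilise the supercomplexes of photosystem II with its antenna. PSB27 and LPA19 are lumenal proteins, both homologues of the cyanobacterial assembly factor Psb27. In Arabidopsis PSB27 is known from the recovery of photosystem II after light damage, and LPA19 from the processing of the precursor of the reaction centre protein D1.

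Each spot has a deposited intensity, linear as judged from its values, for which no unit is stated. Summed intensity per array ran from 2641 to 3553 in WT and from 1988 to 3105 in toc34, and it was lower in toc34 at every replicate number. Per array 2784 to 2974 spots were above 0. In both genotypes replicates 3 and 4 had the highest sums and the fewest spots above 0. The 4 spots were above 0 on all 12 arrays and were not at the ceiling of the table on any of them. TOC34 and its paralog TOC33 are not analysed here, because no spot was annotated to either, and the labels of the arrays could therefore not be checked through the gene that is mutated. The 15 seed, root and flower markers looked for had 0 spots of their own, so the tissue was not checked either. Across spots, arrays with adjacent replicate numbers (1 and 2, 3 and 4, 5 and 6) were the most alike within a genotype, and values are therefore also given by these pairs of numbers. In a comparison of bulk RNA such as this, fewer cells that express a gene and less of its RNA per cell cannot be told apart.

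The subunit genes were lower in toc34 and 1 of the assembly factor genes was higher. Log2 intensities were quantile-normalized between arrays and compared with limma over 2768 tested spots, with Benjamini-Hochberg adjustment over all of them and a threshold of 0.05. Of the 4 genes, all of which were tested, PSBY and PSBW fell, LPA19 rose, and PSB27 did not pass the threshold. The call of PSBW ended when the arrays were not taken as independent, with a limma adjusted p of 0.0573 with the replicate number as a block, 0.168 with adjacent numbers as a random block and 0.193 with them averaged. LPA19 kept its call with either block and lost it with adjacent numbers averaged (limma adjusted p = 0.0545). PSBY kept its call in all of these fits, with weaker limma adjusted p. They were 0.000485 with the replicate block, 8.05e-05 with the random block and 0.0139 with averaging. These fits were run on quantile-normalized values only. Over all tested spots 18.9% fell and 17.2% rose, 36% together, so that a single call in either direction is common on these arrays.

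**Figure D1:**
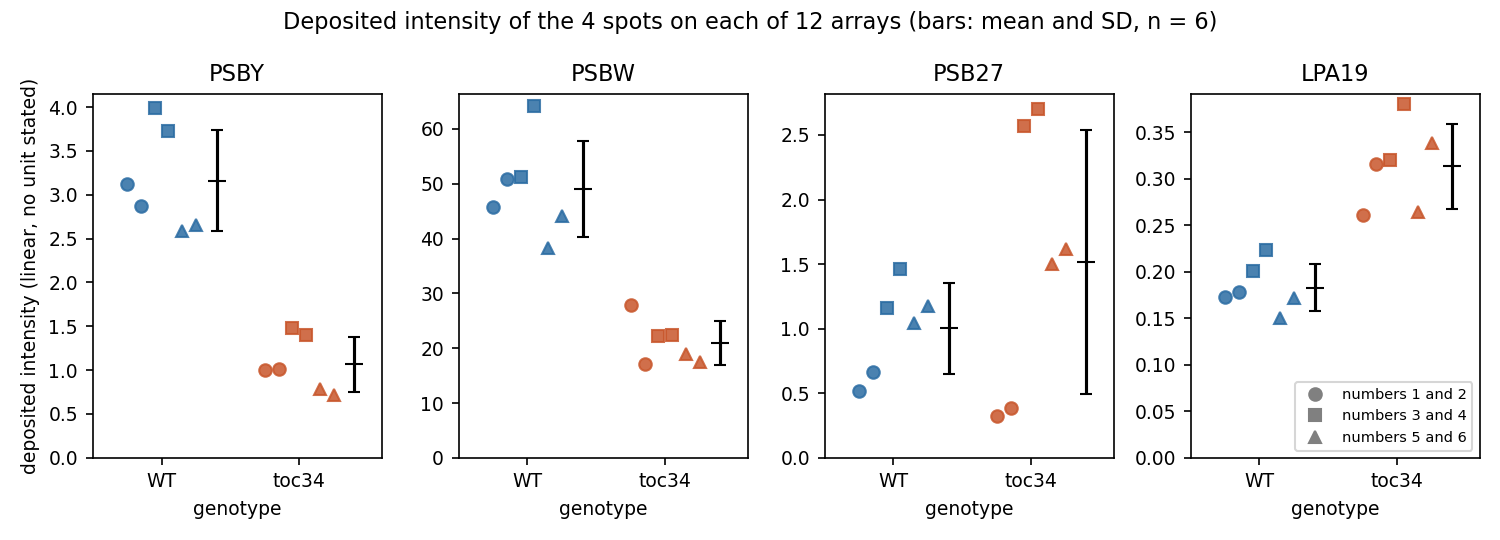
Deposited intensity (linear, each panel with its own axis from 0) of PSBY, PSBW, PSB27 and LPA19 on every array. Points are arrays, their shape gives the pair of replicate numbers, and the bars give mean and SD over 6 arrays. The genotypes do not overlap for PSBY, PSBW and LPA19 on these values, while the toc34 values of PSB27 lie on both sides of the WT values. Of all tested spots, 14.1% are apart in this way with toc34 lower and 7.08% with toc34 higher. After quantile normalization the values of PSBW overlap.

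PSBY had a deposited intensity from 2.59 to 3.99 in WT, with a median of 2.999, and from 0.711 to 1.48 in toc34, with a median of 1.01. The highest toc34 array thus lay below the lowest WT array, as did 14.1% of all tested spots in this direction. PSBY fell 2.66-fold after normalization (log2 difference -1.41, SE 0.12, 95% interval -1.67 to -1.16, limma adjusted p = 4.11e-06). The normalized values did not overlap either, so PSBY was necessarily lower in all 6 pairs of same-numbered arrays. Its rank among the 3439 spots, counted from the brightest and unaffected by the scale of an array, was 125 to 143 in WT and 297 to 350 in toc34.

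The values of PSBY varied little once arrays were normalized. The SD within a genotype was 0.0954 on the log2 scale, against a median of 0.501 over the tested spots, and 0.145% of tested spots had a smaller one. It was 0.285 for PSBW, 0.217 for LPA19 and 0.927 for PSB27. The tested spots are of any brightness, and spots as bright as PSBY were not compared on their own. Between numbers 1 and 2 the log2 difference was -1.37, between 3 and 4 it was -1.37 and between 5 and 6 it was -1.501. Over the deposited scale, 3 other scalings or offsets, and fits with 1 array left out, the difference of PSBY ran from -1.60 to -1.33 and kept its call each time.

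PSBW was among the brightest spots on every array. Its intensity ran from 38.3 to 64.1 in WT (median 48.3) and from 17.1 to 27.8 in toc34 (median 20.6), without overlap of the genotypes, as for 14.1% of tested spots in this direction. The mean intensity was 49.1 ± 8.78 in WT and 21.0 ± 4.07 in toc34 (SD, n = 6 arrays each), a 2.34-fold gap. After quantile normalization PSBW fell 1.44-fold (log2 difference -0.53, SE 0.18, 95% interval -0.93 to -0.13, limma adjusted p = 0.0379), and the normalized values of the genotypes overlapped.

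The size of the PSBW difference depended on the scaling between arrays. It was -1.23 on the deposited scale (limma adjusted p = 0.000347), -1.13 with each array centred on its median (0.000210) and -0.69 with cyclic loess (0.00364). PSBW ranked 6 to 14 from the brightest in WT and 11 to 20 in toc34, so its rank, which is all that quantile normalization keeps of a value, moved by few places although the intensity differed more than 2-fold. The ceiling of the table held 20 values of other spots in toc34 and 1 in WT. With those set to missing the difference of PSBW was -0.24 (limma adjusted p = 0.224).

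The call of PSBW after quantile normalization also rested on single arrays. It ended without WT replicate 1, 2, 4 or 6 and without toc34 replicate 2, 3 or 4, with differences from -0.55 to -0.42 and limma adjusted p from 0.0588 to 0.0803. The difference between same-numbered arrays was negative for all 6 numbers, from -1.22 for number 2 to -0.12 for number 1. In toc34 these same numbers held the lowest and the highest deposited value of PSBW, 17.1 in replicate 2 and 27.8 in replicate 1.

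**Figure D2:**
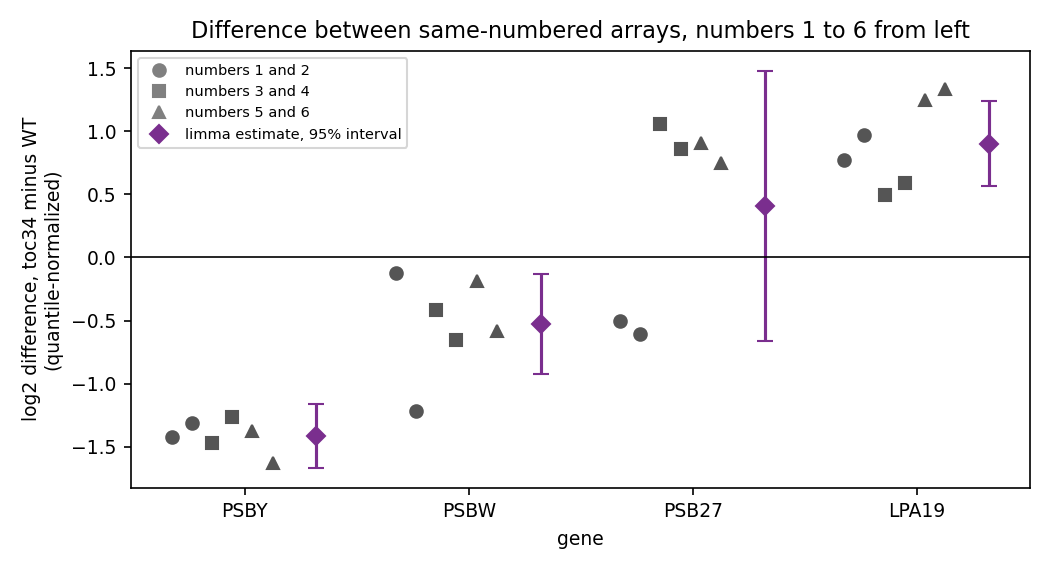
Log2 difference between the toc34 array and the WT array of the same replicate number (quantile-normalized values), numbers 1 to 6 from left for each gene, with the limma estimate over all arrays and its 95% interval at the right. PSBY is negative for all 6 numbers within a narrow range, PSBW is negative for all 6, LPA19 is positive for all 6, and PSB27 is negative for numbers 1 and 2 and positive for 3 to 6.

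LPA19, the assembly factor of D1 processing, was the gene of this group that rose. Its intensity ran from 0.151 to 0.223 in WT (median 0.176) and from 0.261 to 0.380 in toc34 (median 0.318). The lowest toc34 array lay above the highest WT array, as was the case for 7.08% of tested spots in this direction. LPA19 rose 1.87-fold (log2 difference 0.90, SE 0.16, 95% interval 0.57 to 1.24, limma adjusted p = 0.000744). The normalized values did not overlap either, so LPA19 was necessarily higher in all 6 pairs of same-numbered arrays. The differences ran from 0.49 for number 3 to 1.34 for number 6.

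LPA19 had a spot of middling brightness, with a rank from the brightest of 1364 to 1772 in WT and of 736 to 1100 in toc34. Its difference was 0.87 with arrays centred on their medians and 0.78 on the deposited scale, and 0.67 when an offset was added to all values, which shrinks the differences of dim spots. Leaving out 1 array gave 0.82 to 0.96 with the call kept each time. When each pair of adjacent numbers was averaged, leaving 3 values per genotype, the difference was 0.90 with a limma adjusted p of 0.0545, and within numbers 3 and 4 it was 0.61 (0.0870).

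PSB27, the second Psb27 homologue, had no single direction in these arrays. In WT its intensity was 0.517 and 0.661 in replicates 1 and 2, 1.16 and 1.46 in replicates 3 and 4, and 1.04 and 1.18 in replicates 5 and 6. In toc34 it was 0.326 and 0.388 in replicates 1 and 2, 2.57 and 2.70 in replicates 3 and 4, and 1.501 and 1.62 in replicates 5 and 6. Replicates 1 and 2 were thus the lowest of their genotype in both genotypes, and the toc34 values spanned 8.30-fold while the WT values spanned 2.83-fold.

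Over all arrays PSB27 had a log2 difference of 0.41 (SE 0.49, 95% interval -0.66 to 1.48, limma adjusted p = 0.559), an interval that holds both a decrease and an increase of the size seen for PSBW on the normalized scale. Within replicates 1 and 2 the toc34 arrays lay below the WT arrays, with a difference of -0.54 in a fit of those 4 arrays (limma adjusted p = 0.150). Within replicates 3 and 4 the toc34 arrays lay above them, with a difference of 0.998 (0.0379), and likewise within 5 and 6, with 0.84 (0.0470). Without replicates 1 and 2 of both genotypes the difference was 0.91 (limma adjusted p = 0.00480). Of all spots tested in these fits, 27.9% were called within 1 and 2, 30% within 3 and 4, 21% within 5 and 6 and 32.7% without 1 and 2. These subsets were taken after the values had been seen, and the difference between the pairs of numbers was not tested.

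Arrays of a pair agreed closely for PSB27 in each genotype. The values of replicates 1 and 2 lay within 1.28-fold of each other in WT and 1.19-fold in toc34, and those of 3 and 4 within 1.26-fold and 1.05-fold. The order seen for PSB27, lower in toc34 in numbers 1 and 2 and higher in 3 and 4 and in 5 and 6 with no overlap inside any pair, was shared by 44 of the 2337 spots measured on all 12 arrays, or 1.88%. A mixed direction of any kind with no overlap inside the pairs was seen for 257 of these spots (11%), and a constant direction for 847 (36.2%). The labels do not say what the numbers stand for.

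**Figure D3:**
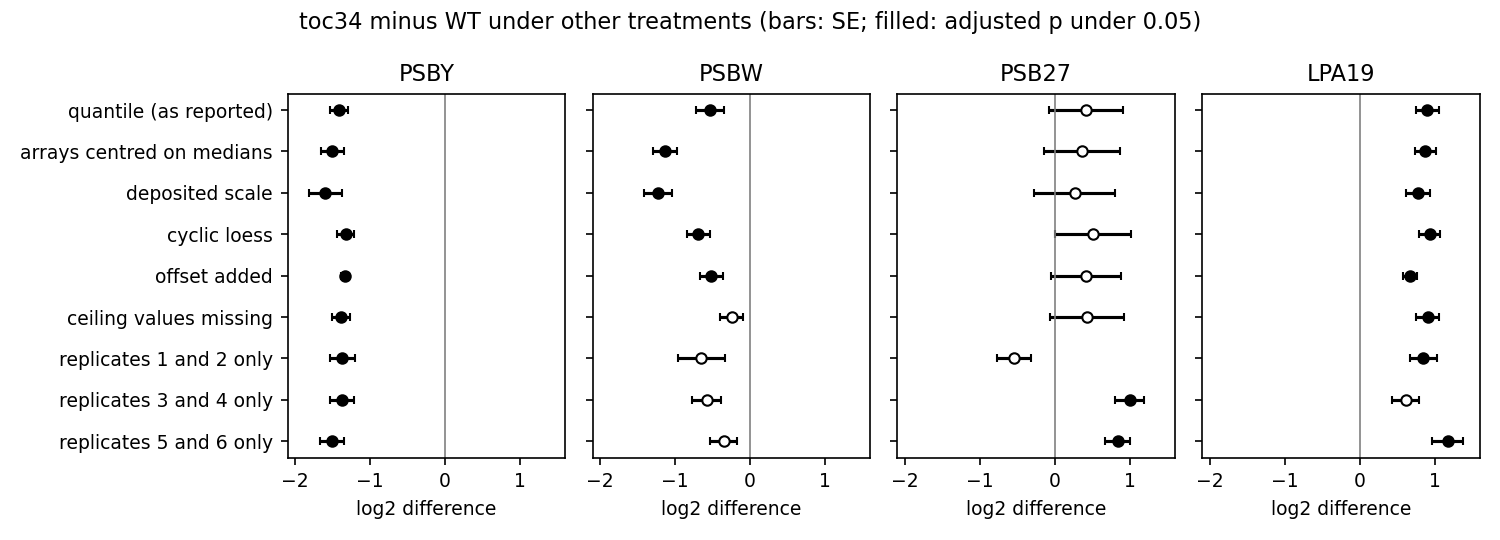
Log2 difference, toc34 minus WT, of the 4 genes with SE bars under other scalings and within single pairs of replicate numbers; filled points have a limma adjusted p under 0.05. PSBY and LPA19 keep their side of 0 throughout, PSBW runs from -1.23 to -0.24, and PSB27 is at -0.54 in numbers 1 and 2 and at 0.84 and 0.998 in the others.

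The log ratio of a pair of spots on the same array does not depend on the scale of that array, and its change between genotypes was compared for the 6 pairs of the 4 genes on deposited values. LPA19 changed relative to PSBY by 5.19-fold (PSBY minus LPA19, log2 difference -2.37, 95% interval -2.75 to -2.03) and relative to PSBW by 4.01-fold (-2.005, -2.32 to -1.64). The adjusted p was 0.00649 for each by an exact permutation test over 924 arrangements of the 12 arrays, two-sided and adjusted over the 6 pairs, from an unadjusted p of 0.00216 that is the smallest 6 against 6 arrays can give. The ratios of the genotypes did not overlap in these cases. They show unequal change of the genes, not which of them moved. The permutation over 924 arrangements takes the 12 arrays as independent. With labels exchanged only within replicate numbers, the exact permutation adjusted p was 0.0469 for both ratios. That test cannot go below an unadjusted p of 0.03125, so it does not grade differences as large as these. With adjacent numbers averaged it was 0.3 for both, where 3 against 3 values cannot go below an unadjusted p of 0.1.

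PSBY and PSBW, the subunit genes, could not be told apart in this way. The change of PSBY minus PSBW was -0.37 (95% interval -0.77 to 0.03, exact permutation adjusted p = 0.0883), so PSBY may have fallen up to 0.77 more on the log2 scale than PSBW. On quantile-normalized values the same quantity was -0.88 (exact permutation adjusted p = 0.00433), and without toc34 replicate 3 it was -0.45 on deposited values (exact permutation adjusted p = 0.0455). Quantile normalization, unlike a single factor per array, changes the ratio of spots on an array.

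Ratios with PSB27 were spread more widely. PSBY minus PSB27 changed by -1.86 (95% interval -3.05 to -0.54, exact permutation adjusted p = 0.0476), a call that ended without any 1 of 9 arrays, WT replicates 1 to 6 and toc34 replicates 4 to 6, with differences from -1.97 to -1.65. PSBW minus PSB27 changed by -1.49 (-2.78 to -0.03, exact permutation adjusted p = 0.0682), which was -1.94 (0.0130) without toc34 replicate 1, -1.75 (0.0390) without toc34 replicate 2, and -1.49 with labels exchanged only within replicate numbers, as a block (0.0469). The Psb27 homologues were not told apart either, with a change of PSB27 minus LPA19 of -0.51 (-1.75 to 0.65, exact permutation adjusted p = 0.372). That interval allows the change of PSB27 to lie below or above that of LPA19, and does not show that PSB27 rose.

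**Figure D4:**
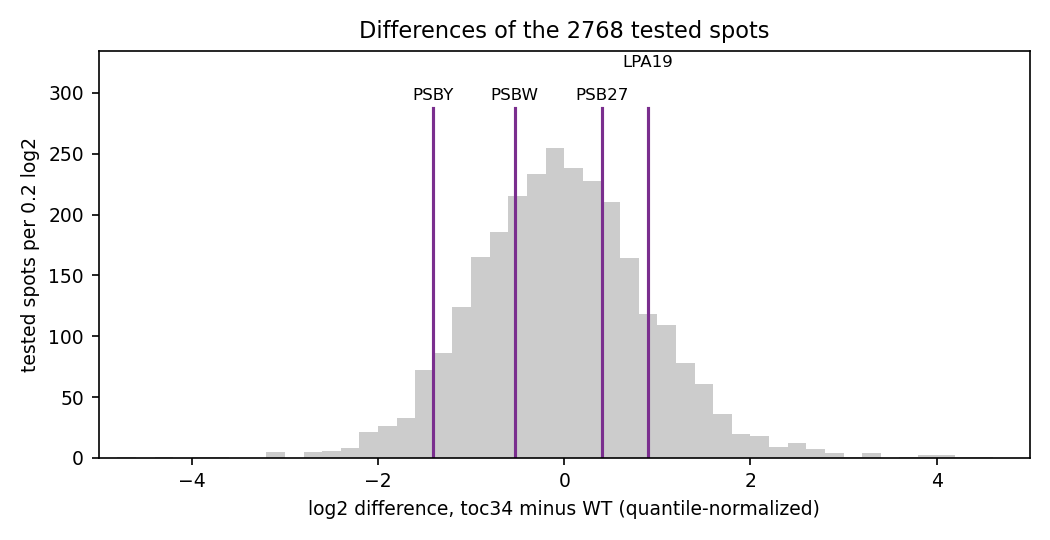
Histogram of the log2 difference, toc34 minus WT (quantile-normalized), of the 2768 tested spots in bins of 0.2, with lines at the 4 genes. PSBY lies to the left at -1.41, where 6.29% of tested spots are as low or lower. PSBW and PSB27 lie within the bulk of the spots at -0.53 and 0.41, and LPA19 lies to the right at 0.90.

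Against the whole array, 6.29% of tested spots had a difference as low as or lower than that of PSBY, and 29.2% for PSBW. The difference of LPA19 was the 417th highest of 2768 and that of PSB27 the 851st. The median over all tested spots was -0.05, and it was -0.20 without scaling and -0.10 after median centring. Relative to that shift PSBY, PSBW and LPA19 kept their directions on each of these scales.

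A wider list of 42 nuclear genes of photosystem II, made of subunits, assembly factors and repair proteases, had 5 genes on spots of their own, and all 5 were tested. They were the 4 genes above and AT1G54500, which encodes RBD1, a thylakoid rubredoxin known to be needed for photosystem II assembly. AT1G54500 had an intensity from 0.630 to 0.747 in WT and from 0.413 to 0.747 in toc34, with a difference of -0.22 (95% interval -0.48 to 0.05, limma adjusted p = 0.195). Of the 5 genes 2 fell and 1 rose, with a median log2 difference of -0.22 against -0.05 over all tested spots, and with 18.9% and 17.2% of all tested spots called lower and higher. The 2 genes that fell became 1, PSBY, with the replicate block and with adjacent numbers as a random block, and they became 3 with an offset added, where AT1G54500 had a difference of -0.18 (limma adjusted p = 0.0381). With so few genes on the array the list describes these spots and not the complex.

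From a list of 43 genes of light harvesting, photosystem I, electron transport and ATP synthase, 2 genes had spots of their own. LHB1B2, an antenna protein of photosystem II, had a difference of -0.45 (limma adjusted p = 0.0809) and PSAN, a lumenal subunit of photosystem I, of -0.39 (limma adjusted p = 0.0909). None of these 2 passed the limma threshold, and 2 had an unadjusted p under 0.05. The values of both depended on the scaling, as for PSBW. LHB1B2 had -1.02 on the deposited scale (limma adjusted p = 0.00120) and -0.92 with arrays centred on medians (0.000521), and PSAN had -0.69 (0.0155) and -0.60 (0.00542). With cyclic loess PSAN differed by less, at -0.26 (limma adjusted p = 0.212), and LHB1B2 by -0.51 (0.0119). With ceiling values missing LHB1B2 was at -0.27 (limma adjusted p = 0.308). LHB1B2 also varied with the replicate numbers. Its difference was -0.005 within 1 and 2 (limma adjusted p = 0.987), -0.80 within 3 and 4 (0.0363) and -0.37 within 5 and 6 (0.240). Within 3 and 4, 30% of tested spots were called. PSAN had -0.47, -0.22 and -0.53 in these fits, without a call.

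The named genes whose profiles were most like those of the 4 genes were found among 477 other single-gene spots measured on all 12 arrays. Likeness was the root mean square difference between profiles of normalized log2 values, each taken relative to its own WT mean. The profile nearest to PSBY was that of AT1G72890, at 0.17, then NTRC, the chloroplast NADPH-thioredoxin reductase, at 0.225 and AT4G32060 at 0.234, against a median of 1.17 over the spots compared with PSBY. These 3 had log2 differences of -1.37, -1.57 and -1.58, close to that of PSBY by construction of the measure.

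For PSBW the nearest were AT1G21660 (0.235), SIS (0.248) and AT3G06570 (0.274), and for LPA19 they were AT4G39690 (0.212), AT3G09080 (0.236) and AT4G22830 (0.238). PSB27 had no profile as near, with AT1G13970 at 0.402, AT4G24750 at 0.498 and AT3G07790 at 0.537. Among the 4 genes themselves PSBY and PSBW were the nearest at 0.681, PSB27 and LPA19 lay at 0.918, and PSBY and LPA19 were the farthest apart at 1.66. The median over all spots compared was 0.801 for PSBW, 1.13 for PSB27 and 0.928 for LPA19, so that PSB27 and LPA19 were about as unlike as LPA19 and a typical spot.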

How the data were processed

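The series holds 1 array per sample. The deposited values are intensities, taken as linear from their range and skew because no unit, scanner, background correction or scaling is given in the sources used here. Background subtraction, if any, would affect dim spots most. Titles of the samples gave genotype and replicate number. The members and gene lists were chosen with earlier results of these data known. Spots were named through the platform annotation of 2016, matched by gene identifier to a RefSeq table of TAIR10.1, which held 690 of 692 single-gene spots. Coordinates are left out, since the array's build is unknown.

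Values of 0 were set to missing, log2 values were quantile-normalized, and spots with at least 4 measured values per genotype were fitted with lmFit and eBayes (limma 3.58.1, R 4.3.3) without covariates, with Benjamini-Hochberg adjustment over 2768 spots. The number of arrays limits the precision. Unless stated, p-values are two-sided. Promoter and protein sequences were not used here. Named were the 4 genes, tested genes of the lists on spots of their own, and for each of the 4 the 3 nearest profiles.

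As a check on pairing, arrays were set relative to the mean of their genotype, and same-numbered arrays then correlated across spots at 0.12 to 0.259 for the 6 numbers, all above 0.1, so the numbers may pair the arrays, on the strength of the values and not of the labels. The reported fit and permutation tests do not use this pairing, and the replicate block is given beside them where it changes a call. Neighbouring numbers correlated across genotypes at 0.00686 to 0.179 and other numbers at -0.159 to 0.0476.

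Alternatives were other scalings (none, median, cyclic loess), an offset of 0.09 with values of 0 kept, ceiling values missing, other filters, the replicate number as a block, neighbouring numbers averaged or as a random block (duplicateCorrelation, statmod 1.5.0), each array left out, and a threshold of 0.01.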

Additional observations from a re-analysis of the deposited data

Results flagged for a closer look

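An array standing far from the other 5 of its genotype was searched for by Dixon's ratio in the 7 named genes of the lists and in total, median and number of spots above 0, which makes 20 groups of 6 arrays. The search found 0, where chance alone gives about 1. Such a search does not catch PSB27, because its low arrays come in pairs of neighbouring numbers.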

How the results depend on the processing

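Over 28 alternatives PSBY kept its direction and call in 28, LPA19 in 26, and PSBW its direction in 28 and its call in 12; PSB27 kept its direction and did not pass the threshold in 24. The limma call of PSBW ended, at an unchanged difference of -0.53, with the replicate block (adjusted p = 0.0573), with neighbouring numbers averaged (0.193) or as a random block (0.168) and at a threshold of 0.01; it also ended with ceiling values missing (-0.24), within replicates 1 and 2 (-0.65), 3 and 4 (-0.58) or 5 and 6 (-0.35), and without replicates 1 and 2 (-0.47). LPA19 lost its call at 0.90 with neighbouring numbers averaged and at 0.61 within 3 and 4. PSB27 was reversed within 1 and 2 (-0.54) and passed the threshold within 3 and 4 (0.998), within 5 and 6 (0.84) and without 1 and 2 (0.91). Fits on averages or on single pairs have fewer values behind them; the cause of the other changes was not tested. With 1 array left out the difference of PSBY ran from -1.44 to -1.37, PSBW from -0.61 to -0.42, PSB27 from 0.23 to 0.75 and LPA19 from 0.82 to 0.96.

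The count of called spots, 997, was 381 with neighbouring numbers averaged, 625 with the random block, 562 within replicates 5 and 6 and 620 at the threshold of 0.01. The share of calls that were increases was 47.6%, and 36.2% on the deposited scale. Of the photosystem II list, 1 gene rose except for 0 with averaging (limma, with 1 at an unadjusted p under 0.05) and 2 within 5 and 6 or without 1 and 2. Within replicates 3 and 4 the gene that rose was PSB27 and not LPA19. The 2 genes that fell became 1 wherever PSBW lost its call, became 3 with the offset, where AT1G54500 gained a call (-0.18), and ran from 1 to 2 with 1 array left out.

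In the exact permutation tests, PSBY minus PSBW was -0.88 on quantile-normalized values (adjusted p = 0.00433). PSBW minus PSB27 passed as a replicate block (-1.49, 0.0469), where the unadjusted p cannot go below 0.03125. With neighbours averaged, where 3 against 3 cannot go below 0.1, PSBY minus PSB27 (-1.86), PSBY minus LPA19 (-2.37) and PSBW minus LPA19 (-2.005) lost their calls. With 1 array left out, PSBY minus PSBW ran from -0.45 to -0.28, PSBY minus PSB27 from -2.22 to -1.65 and PSBW minus PSB27 from -1.94 to -1.27. Of the alternative fits, only those within pairs and those without replicates 1 and 2 were added after the data were seen.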

Other observations

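Further genes of photosystem II assembly and repair lie on spots that the annotation shares among several genes, so their values belong to no single gene. There were 5 such spots, all tested, and 0 were called by limma, with 0 at an unadjusted p under 0.05. The spot shared by LPA1, an assembly factor of photosystem II, and AT4G28740 had a log2 difference of -0.53 (limma adjusted p = 0.350), and the spot shared by PAM68, a further assembly factor, and AT5G52780 one of -0.91 (0.223). The 3 others ran from -0.53 to 0.94. None of the 5 had a deposited intensity above 0.216, where the median of the spots above 0 ran from 0.158 to 0.223 per array.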
